A study of Mus musculus with 6 samples.

Results

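Potassium channel genes were compared between muscle captured at neuromuscular junctions (NMJs, the synapses of motor nerve on muscle fibre) and muscle captured away from them. Members were all genes whose gene-level row carried exactly 1 symbol beginning with Kcn, followed by letters and a closing number, with Kcnj8 left out. Where more than 1 row carried the symbol, the brightest row on average over all 6 arrays was kept. This gave 70 genes of 14860 with a single-symbol row, by a naming rule that uses no difference between regions but was set with earlier results of these data known. By symbol they fell into 27 pore subunits of voltage-gated (Kv) channels, 11 Kv auxiliary subunits, 9 subunits of the calcium- and sodium-activated family, 13 inward rectifiers and 10 tandem pore domain channels. No sodium-activated (Kcnt) gene was among the members.

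The tissue was tibialis anterior, a fast leg muscle, of ICR mice aged 16 weeks, with no treatment or mutation named in the labels. The 3 NMJ arrays held RNA from junctions found by staining for acetylcholinesterase and cut out by laser, 9973 in the labels' count. The 3 non-NMJ arrays held RNA from an equal area taken elsewhere on the same fibres. The labels used here do not say how many animals were pooled or whether a replicate number marks an animal, so the p-values measure the spread between these samples, are too small if arrays of a region share animals, and take no account of animals shared between regions.

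The captured regions were described by lists of defining genes. These lists were chosen with earlier results of these data known, so they are no independent check of the capture. All 10 genes listed for the junction were higher in NMJ regions, where their summed level (the sum of RMA values taken off the log2 scale) was 22345 to 23132 per array, against 969.9 to 1082 in non-NMJ regions. Myofibre genes were bright in both regions and lower at the junction in 6 of 8 measured cases, with sums of 43416 to 44369.9 in NMJ regions, against 55484 to 56904 in non-NMJ regions. Schwann cell markers were higher in 9 of 9 cases, at 2200.2 to 2324 in NMJ regions, against 342 to 404 in non-NMJ regions, and fibroblast markers in 8 of 10. Endothelial markers were lower in 6 of 10 cases and higher in 0. Neuron markers were higher in 0 of 10 cases and lower in 1, and 9 of the 10 lay below the median row of the table. In captured tissue, fewer cells of a type and less RNA per cell cannot be told apart.

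Potassium channels let potassium leave or enter the cell along its gradient and so hold the resting potential and end the action potential. Kv channels open on depolarisation, inward rectifiers carry current near the resting potential, tandem pore domain channels give a steady leak, and calcium-activated channels couple potassium flow to intracellular calcium. In skeletal muscle, inward rectifiers of the Kir2 family set much of the resting potassium conductance of the fibre and its transverse tubules, and an ATP-sensitive channel links conductance to energy state.

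Of the 70 genes, 8 were higher and 6 lower in NMJ regions at a limma adjusted p under 0.05 over all 23332 rows. That is 20.0% of the members, against 23.0% of all rows (14.4% higher and 8.63% lower), so the share of members called was near that of the table as a whole. The split by direction changed with the scaling: quantile normalization called 6 members higher and 8 lower (2878 and 3294 of all rows), and median centring 7 higher and 9 lower (2640 and 3690), against 3351 higher and 2013 lower rows for the values as deposited. The median log2 difference was -0.02 over the members and -0.01 over all rows. The 8 genes that rose were Kcnj12, Kcnn4, Kcna2, Kcna6, Kcnmb4, Kcna1, Kcne4 and Kcnk2. The 6 that fell were Kcnc4, Kcng4, Kcnc1, Kcna7, Kcnj11 and Kcna5. In all 14 the values of the regions did not overlap. That also held for members not called, such as Kcnj2, Kcnj10 and Kcnn3, so it adds no support to the calls. Of the 14, 7 differed by at least 1 on the log2 scale (4 higher, 3 lower). The shares of all rows with either trait were not counted.

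**Figure D1:**
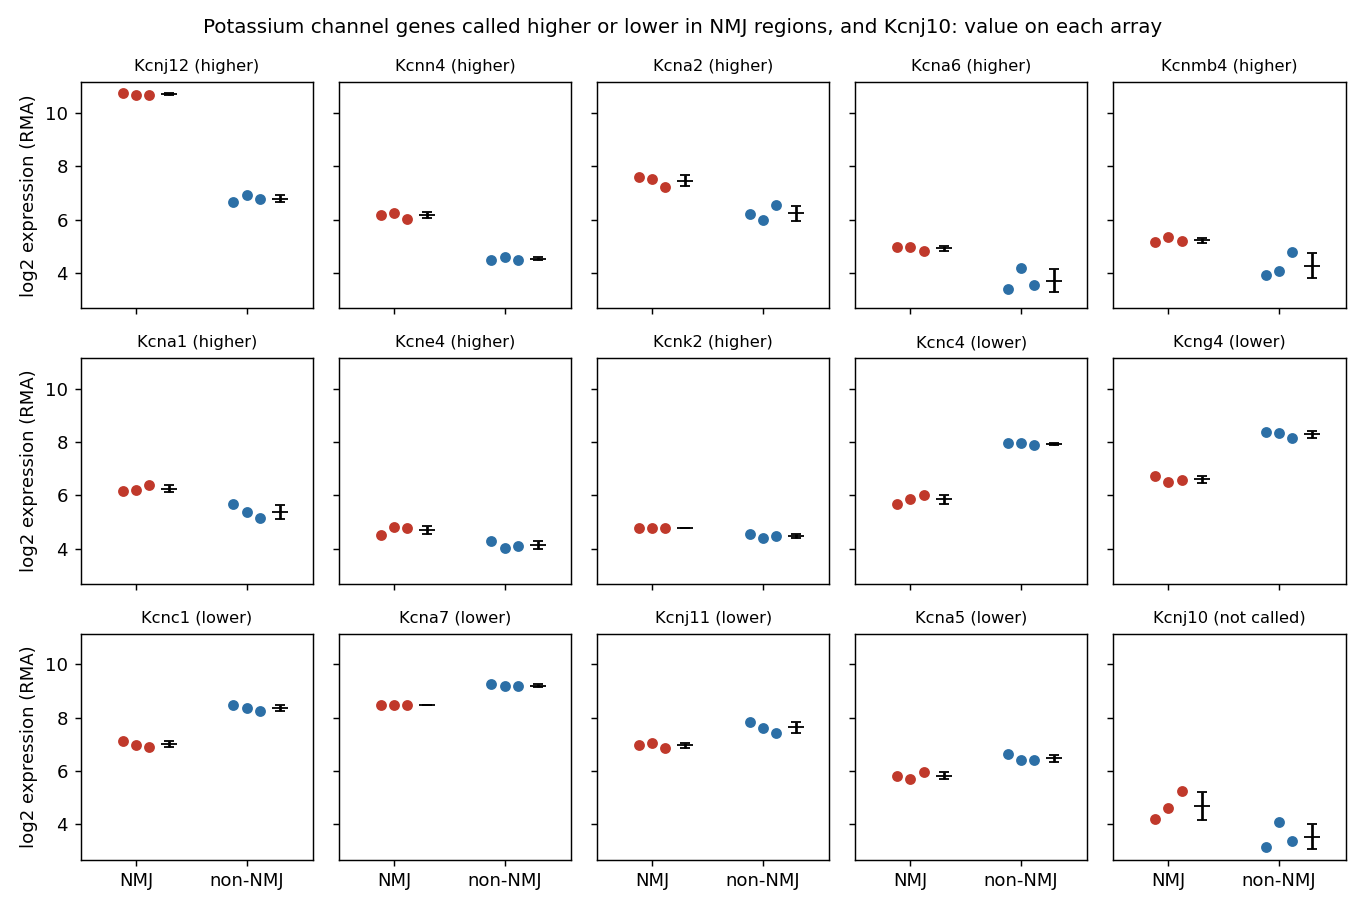
Log2 expression (RMA value, vertical axis) of the 14 called potassium channel genes and of Kcnj10 on each NMJ array (red) and each non-NMJ array (blue). Bars beside the points are the mean and SD of 3 arrays; Kcnj12 stands near 10.7 at junctions and near 6.8 away from them, while Kcnc4, Kcng4 and Kcnc1 are lower at junctions on every array.

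Most members were dim, and calls were uncommon among the dim ones. Only 23 of the 70 lay above the median row of the table (a mean log2 value of 4.44 over the 6 arrays), and 12 of these 23 were called (52.2%), 6 in each direction. Among all rows above that median the share was 38.1% (23.7% higher and 14.4% lower). Of the 47 members at or below it, 2 were called, Kcna6 and Kcne4, both higher, against 7.93% of all such rows (5.06% higher and 2.87% lower). How far the dim rows stood above background is unknown. RMA values compress differences of dim rows.

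**Figure D2:**
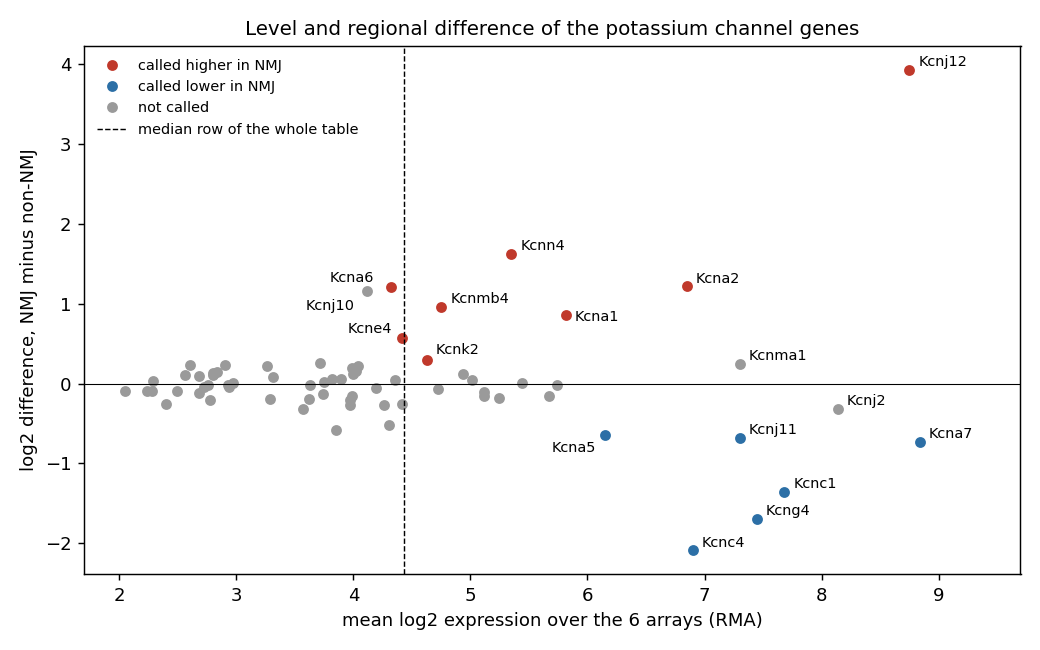
Mean log2 expression over the 6 arrays (horizontal axis) against the log2 difference, NMJ minus non-NMJ (vertical axis), for the 70 genes; red and blue points passed the limma test and grey ones did not. The dashed line is the median row of the table at 4.44, and 12 of the 14 called genes lie to its right.

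The promoter sequences shown here are those of the 3 called genes with the largest increases and the 3 with the largest decreases at the junction among the members held in the RefSeq promoter table, to let genes that moved in opposite directions be read side by side. Each runs from 250 bases before to 50 bases after the annotated start on GRCm38.p6, 5′ to 3′ on the gene's strand. E-boxes (CANNTG, a general core that includes the sites of myogenic factors) are in capitals, and binding to them was not tested. The promoters of genes that rose are Kcnj12 at chr11:61065554-61065853 (+ strand), Kcnn4 at chr7:24370013-24370312 (+) and Kcna2 at chr3:107101317-107101616 (+).
Kcnj12: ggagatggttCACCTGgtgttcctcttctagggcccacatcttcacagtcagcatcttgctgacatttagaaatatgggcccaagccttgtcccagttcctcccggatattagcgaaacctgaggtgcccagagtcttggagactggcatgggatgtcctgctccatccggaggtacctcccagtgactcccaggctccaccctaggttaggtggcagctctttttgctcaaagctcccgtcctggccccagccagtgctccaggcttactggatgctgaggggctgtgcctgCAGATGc
Kcnn4: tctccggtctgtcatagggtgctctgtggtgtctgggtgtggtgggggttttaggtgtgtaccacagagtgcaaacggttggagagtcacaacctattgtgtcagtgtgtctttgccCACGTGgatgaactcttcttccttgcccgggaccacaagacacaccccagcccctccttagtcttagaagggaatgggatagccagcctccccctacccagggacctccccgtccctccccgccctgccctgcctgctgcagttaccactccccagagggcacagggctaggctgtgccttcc
Kcna2: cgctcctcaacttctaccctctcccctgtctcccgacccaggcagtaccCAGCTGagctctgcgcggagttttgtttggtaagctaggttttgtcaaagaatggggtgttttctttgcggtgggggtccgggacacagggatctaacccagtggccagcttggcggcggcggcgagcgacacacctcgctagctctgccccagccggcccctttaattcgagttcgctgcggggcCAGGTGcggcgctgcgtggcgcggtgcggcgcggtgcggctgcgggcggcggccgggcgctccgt
Those of genes that fell are Kcnc4 at chr3:107458849-107459148 (- strand), Kcng4 at chr8:119635631-119635930 (-) and Kcnc1 at chr7:46396218-46396517 (+).
Kcnc4: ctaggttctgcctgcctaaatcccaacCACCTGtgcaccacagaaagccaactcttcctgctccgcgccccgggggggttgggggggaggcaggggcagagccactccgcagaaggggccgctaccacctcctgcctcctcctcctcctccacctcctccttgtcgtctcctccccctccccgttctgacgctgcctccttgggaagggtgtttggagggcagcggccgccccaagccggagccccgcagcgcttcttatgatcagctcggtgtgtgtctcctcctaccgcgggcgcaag
Kcng4: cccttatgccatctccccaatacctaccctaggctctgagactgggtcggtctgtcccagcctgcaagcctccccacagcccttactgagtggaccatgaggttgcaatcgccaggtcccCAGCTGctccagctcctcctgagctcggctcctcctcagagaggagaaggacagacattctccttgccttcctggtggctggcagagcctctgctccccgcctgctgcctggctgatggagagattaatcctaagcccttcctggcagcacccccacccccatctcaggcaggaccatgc
Kcnc1: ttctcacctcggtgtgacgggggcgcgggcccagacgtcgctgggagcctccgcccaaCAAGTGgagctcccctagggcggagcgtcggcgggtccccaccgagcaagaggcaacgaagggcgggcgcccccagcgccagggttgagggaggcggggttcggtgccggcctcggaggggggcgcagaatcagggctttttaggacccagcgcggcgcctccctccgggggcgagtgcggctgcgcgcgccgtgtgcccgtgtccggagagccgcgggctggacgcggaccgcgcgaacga

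Each of these 6 windows held 1 or 2 E-boxes. An E-box was present in 72.3% of the 32851 promoters of the table and in 72.4% of the 76 promoters of 55 members. The core of the N-box, CCGGAA read on both strands, is an ETS factor site known from acetylcholine receptor promoters. It was in 0 of the 6 windows and in 14.9% of all promoters. Among called genes it was in 2 of 10 promoters of genes that rose, those of Kcne4 and Kcnk2, and in 0 of 5 of genes that fell. A MEF2 site, searched by its consensus, was in 0 of those 15 promoters and in 0.557% of all. GC content was 57.0% for Kcnj12, 59.7% for Kcnn4 and 66.7% for Kcna2, which rose, and 66.7% for Kcnc4, 61.3% for Kcng4 and 74.7% for Kcnc1, which fell, beside a median of 52.7% over all promoters.

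Among inward rectifiers, 1 of 13 rose and 1 fell (15.4% called, beside 23.0% of all rows). Only 3 of the 13 lay above the median row, where 38.1% of all rows were called, against 7.93% at or below it. The 1 rise was the largest difference of any member. Kcnj12 (row 6781492), which encodes Kir2.2, a strong inward rectifier of muscle and heart, had log2 values of 10.76, 10.68 and 10.69 in NMJ regions, against 6.66, 6.92 and 6.78 in non-NMJ regions. All junction arrays were far above all others. The difference was 3.93 ± 0.10 (SE, n = 3 per region), or 15.2-fold, with a limma adjusted p of 1.37e-05. Only 51 of the 23332 rows had a larger positive difference.

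Kcnj2, which encodes Kir2.1 and is the other Kir2 gene among the brighter rows, was not called. It had values of 7.99, 8.08 and 7.86 in NMJ regions, against 8.09, 8.34 and 8.46 in non-NMJ regions. The ranges did not overlap, but the difference of -0.32 ± 0.13 (SE) did not pass (limma adjusted p = 0.133; 95% interval -0.63 to -0.01). After median centring it was -0.46 with an adjusted p of 0.0388. Taken within each array, Kcnj12 minus Kcnj2 was 2.77, 2.60 and 2.83 in NMJ regions, against -1.43, -1.43 and -1.68 in non-NMJ regions, a change of 4.25 ± 0.11 (SE). Array values do not rank the amounts of different transcripts, so only the change of such a gap between regions can be read. The exact two-sided permutation test gave p = 0.1, the smallest that 3 arrays against 3 allow, so it cannot pass 0.05; 5 such gene pairs were compared, and all gave p = 0.1, also after Benjamini-Hochberg adjustment.

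Kcnj11, which encodes the pore (Kir6.2) of the ATP-sensitive channel of muscle, fell. Its values were 6.96, 7.06 and 6.86 in NMJ regions, against 7.85, 7.63 and 7.44 in non-NMJ regions. The regions did not overlap, with a difference of -0.68 ± 0.13 (SE, limma adjusted p = 0.0132), or 1.60-fold lower. Without NMJ replicate 1 the adjusted p was 0.0527. Abcc9, which encodes the sulfonylurea receptor that pairs with this pore in muscle and is no Kcn gene, had a difference of 0.11 ± 0.08 (SE, limma adjusted p = 0.405), with values of 8.56, 8.65 and 8.55 in NMJ regions, against 8.51, 8.52 and 8.40 in non-NMJ regions.

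Kcnj10 encodes Kir4.1, a channel of glial cells. It had values of 4.20, 4.63 and 5.25 in NMJ regions, against 3.15, 4.07 and 3.39 in non-NMJ regions. The regions did not overlap, but the arrays within each were widely spread. Its difference of 1.15 ± 0.34 (SE) lay just outside the threshold (limma adjusted p = 0.0579), and it passed without non-NMJ replicate 2 (0.0387). Kcnj5, a subunit of the G protein-gated channel, had a difference of 0.23 and an adjusted p of 0.563. Kcnj14 had the least certain value of the class, with 4.56, 4.73 and 3.16 in NMJ regions, against 4.97, 3.47 and 3.34 in non-NMJ regions and an SE of 0.59. The remaining inward rectifiers (Kcnj1, Kcnj3, Kcnj4, Kcnj6, Kcnj9, Kcnj15 and Kcnj16) were dim and were not called. Differences of the 11 members that were not called ran from -0.32 to 1.15.

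Kv pore subunits moved both ways, with 3 of 27 higher and 5 lower (29.6% called, beside 23.0% of all rows). Of the 27, 11 lay above the median row, where 38.1% of all rows were called. The 3 that rose were all Kv1 (Shaker) genes, Kcna2, Kcna6 and Kcna1, whose products form the low-threshold channels beside the nodes of myelinated axons. Kcna2 (Kv1.2) had values of 7.61, 7.53 and 7.23 in NMJ regions, against 6.19, 5.98 and 6.54 in non-NMJ regions. Its difference was 1.22 ± 0.18 (SE, limma adjusted p = 0.00483), or 2.33-fold higher. Kcna6 (Kv1.6) had 4.96, 4.97 and 4.83 in NMJ regions, against 3.41, 4.19 and 3.54 in non-NMJ regions, a difference of 1.21 ± 0.21 (SE, adjusted p = 0.00983). Its non-NMJ values lie below the median row, so its fold of 2.31 is that of the RMA values only. Kcna1 (Kv1.1) had 6.15, 6.20 and 6.39 in NMJ regions, against 5.66, 5.38 and 5.13 in non-NMJ regions, a difference of 0.85 ± 0.15 (SE, adjusted p = 0.0111). None of the 3 had overlapping regions. Schwann cell markers rose in the same arrays, as given above, while neuron markers did not; their part in these differences was not tested.

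Of the other 4 Kv1 genes measured, 2 fell. Kcna7 (Kv1.7), expressed in skeletal muscle, had the highest mean array value of the members, with 8.46, 8.48 and 8.49 in NMJ regions, against 9.26, 9.18 and 9.17 in non-NMJ regions. It fell by 0.73 ± 0.08 (SE, limma adjusted p = 0.00149), or 1.65-fold. Kcna5 (Kv1.5), a channel of heart and vascular smooth muscle, had 5.82, 5.71 and 5.95 in NMJ regions, against 6.62, 6.40 and 6.42 in non-NMJ regions, and fell by 0.65 ± 0.11 (SE, adjusted p = 0.00833). Both were lower on every junction array. Mural and smooth muscle markers fell in 5 of 9 measured cases and rose in 1, with sums of 4438 to 4673 in NMJ regions, against 5906 to 6137 in non-NMJ regions. Most of these sums is Des, which myofibres also express and which was not called; without it, a choice made after seeing the data, the sums of the other 8 markers were 1235 to 1290.4 in NMJ regions, against 2099 to 2378 in non-NMJ regions. The part of these cells in the fall of Kcna5 was not tested. Kcna3 and Kcna4 had differences of 0.00 and 0.14 and were not called.

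The neighbouring genes Kcna5 and Kcna1 moved in opposite directions. In the RefSeq order of protein-coding genes, Kcna5, Kcna1 and Kcna6 are consecutive on chromosome 6. Kcna5 fell while Kcna1 and Kcna6 rose. Within each array, Kcna1 minus Kcna5 was 0.32, 0.49 and 0.44 in NMJ regions, against -0.96, -1.02 and -1.28 in non-NMJ regions, a change of 1.50 ± 0.11 (SE). For Kcna6 minus Kcna5 the change was 1.86 ± 0.32 (SE). On chromosome 3, Kcna3 and Kcna2 are neighbours, and Kcna2 minus Kcna3 was 2.20, 2.43 and 1.42 in NMJ regions, against 1.19, 0.50 and 0.72 in non-NMJ regions, a change of 1.22 ± 0.37 (SE). Kcna2 minus Kcna7, genes on different chromosomes, changed by 1.95 ± 0.21 (SE). The pairs were chosen with the differences of their genes known, so gaps that do not overlap between regions follow from the choice.

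Both Kv3 (Shaw) genes measured fell, and among all members Kcnc4 had the largest decrease. Kv3 channels open at high voltage and repolarise quickly. Kcnc4 (Kv3.4, row 6908029), known in fast skeletal muscle, had log2 values of 5.68, 5.86 and 6.03 in NMJ regions, against 7.96, 7.96 and 7.90 in non-NMJ regions. The difference of -2.09 ± 0.11 (SE, limma adjusted p = 1.17e-04) made it 4.25-fold lower. Kcnc1 (Kv3.1) had 7.14, 6.99 and 6.89 in NMJ regions, against 8.47, 8.35 and 8.25 in non-NMJ regions, with a difference of -1.35 ± 0.11 (SE, adjusted p = 5.13e-04). A dimmer row of Kcnc1, not used here, gave -1.73 ± 0.27 (SE). Every junction array was below every non-NMJ array for both genes.

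Kcng4 encodes Kv6.4, a subunit that forms no channel alone and modifies Kv2 channels. It had values of 6.74, 6.49 and 6.57 in NMJ regions, against 8.38, 8.35 and 8.15 in non-NMJ regions, all lower at the junction. The difference was -1.69 ± 0.11 (SE, limma adjusted p = 2.48e-04), or 3.23-fold lower. Among the 8 measured subunits of this silent kind (Kcnf1, Kcng3, Kcng4, Kcns1 to Kcns3, Kcnv1 and Kcnv2), Kcng4 was the one called. Kcns1 had a difference of -0.59 ± 0.30 (SE, adjusted p = 0.234) and a high value of 4.84 on non-NMJ array 3. Of the 8 measured myofibre genes, 6 fell, as did Kcnc4, Kcnc1, Kcng4, Kcna7, Kcnj11 and Kcna5. The 8 had a median difference of -0.32, and Actn3, the actinin of fast fibres, fell by 0.70. The part of this shift in the channel genes was not tested.

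The other Kv families gave no call. Members of Kv4 (Kcnd1 to Kcnd3) had differences from -0.05 to 0.23, the EAG and ERG related genes (Kcnh1, Kcnh2, Kcnh3, Kcnh5 and Kcnh7) from -0.11 to 0.14, and the KCNQ genes Kcnq1 and Kcnq3, whose products carry slow currents, of -0.21 and -0.13. Kcnh3 passed after quantile normalization (-0.33, adjusted p = 0.0356). Over the 19 Kv pore genes that were not called, differences ran from -0.59 to 0.23, and the lowest adjusted p was 0.234.

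**Figure D3:**
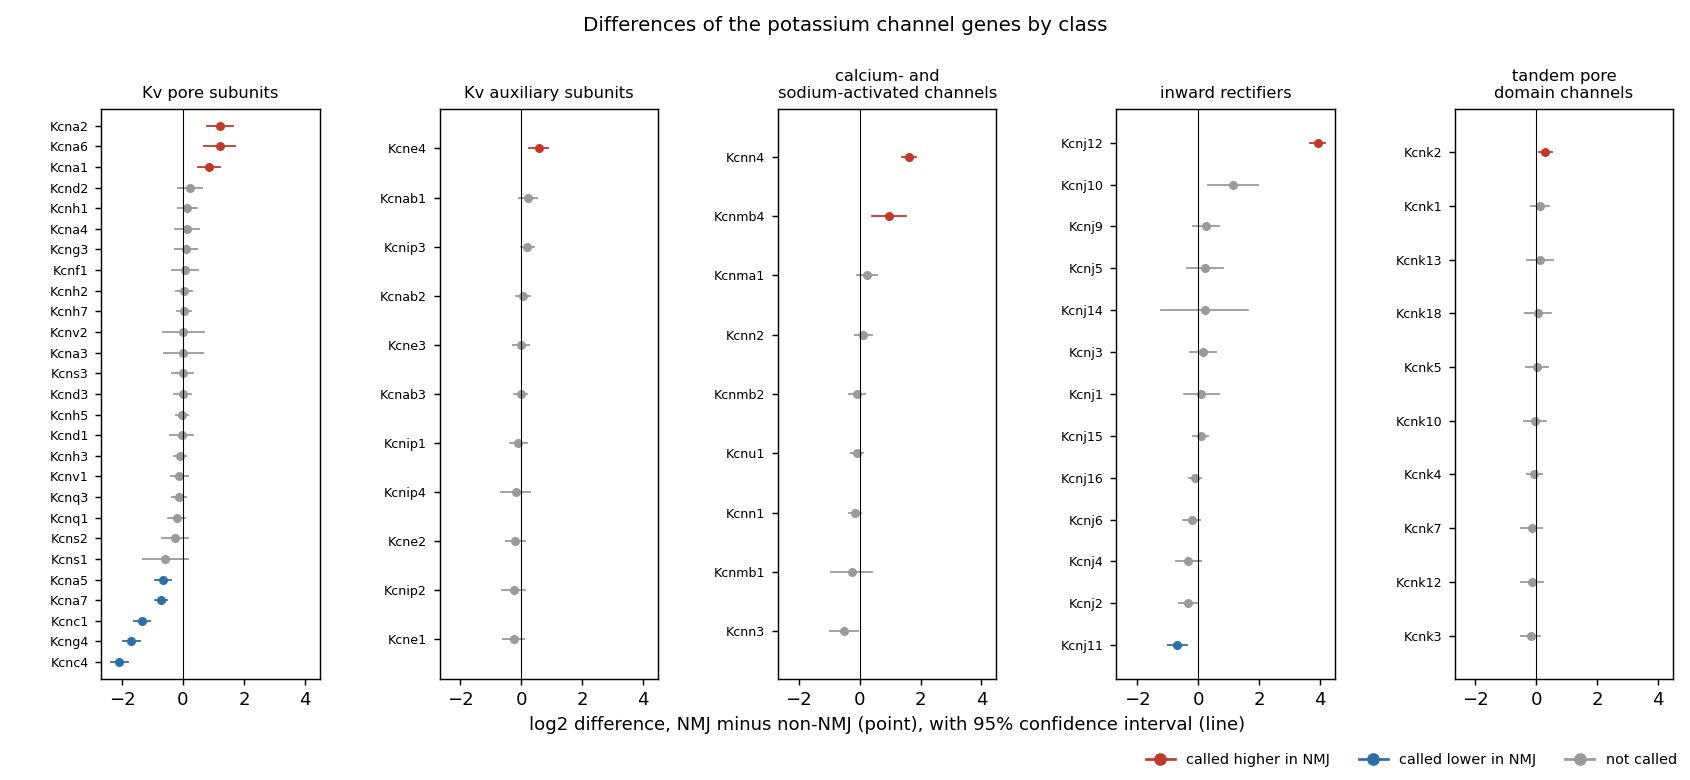
Log2 difference, NMJ minus non-NMJ (points), with its 95% confidence interval from limma (lines), for every member in its class, sorted by difference. Called genes in red (higher) and blue (lower) stand at both ends of the Kv pore subunits and inward rectifiers, while most other intervals cross 0.

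Of 11 Kv auxiliary subunits 1 rose and 0 fell (9.09% called, beside 23.0% of all rows). Kcne4, a single-span subunit that inhibits Kv1 channels, had values of 4.52, 4.81 and 4.77 in NMJ regions, against 4.29, 4.02 and 4.08 in non-NMJ regions. Its non-NMJ values also lie below the median row. The difference of 0.57 ± 0.12 (SE, limma adjusted p = 0.0213) did not pass without NMJ replicate 2 or 3 (0.0781 and 0.0717) or without non-NMJ replicate 2 or 3 (0.0638 and 0.0599), nor with the replicate number as a block (0.0719). Kcne3, a partner of Kv3.4 in muscle, was dim, at means of 2.75 in NMJ regions and 2.77 in non-NMJ regions, with a difference of -0.02 ± 0.11 (SE). Kcne1 and Kcne2 had -0.26 and -0.19. The cytoplasmic beta subunits Kcnab1, Kcnab2 and Kcnab3, which bind Kv1 channels, had 0.22, 0.05 and -0.02, and the calcium-sensing Kv4 partners Kcnip1 to Kcnip4 ran from -0.25 (Kcnip2) to 0.20 (Kcnip3). All members of this class had a mean at or below the median row, where 7.93% of all rows were called.

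Of 9 genes of the calcium- and sodium-activated family 2 rose and 0 fell (22.2% called, beside 23.0% of all rows). Above the median row, where 38.1% of all rows were called, lay 4 of the 9. At or below it the share was 7.93%. No Kcnt gene was among the 9, so sodium-activated channels were not covered. Kcnn4 (row 6959116), the intermediate-conductance calcium-activated channel, best known from red cells, lymphocytes and macrophages, had values of 6.19, 6.26 and 6.04 in NMJ regions, against 4.51, 4.61 and 4.50 in non-NMJ regions. The arrays of each region lay close together and far from those of the other. The difference was 1.62 ± 0.09 (SE, limma adjusted p = 1.63e-04), or 3.08-fold higher. Macrophage and leukocyte markers rose in 3 of 9 measured cases and fell in 1, with sums of 498 to 573 in NMJ regions, against 386 to 432 in non-NMJ regions. Most of the gap between these sums is Mrc1, which rose by 1.85. C1qc and Cd163 rose by 0.58 and 0.56, Cd68 fell by 0.30, and the rest were not called. All 4 measured T cell markers lay below the median row with 0 called, and their sums were 31.5 to 36.6 in NMJ regions, against 35.7 to 38.4 in non-NMJ regions. Schwann cell and fibroblast markers rose in more of their measured cases, 9 of 9 and 8 of 10. The part of any of these cell types in the rise of Kcnn4 was not tested.

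The small-conductance channels of the same gene family had no call. Kcnn3, known for its return in denervated muscle, had values of 4.12, 4.01 and 4.01 in NMJ regions, against 4.94, 4.52 and 4.22 in non-NMJ regions. Its difference of -0.52 ± 0.19 (SE) had a limma adjusted p of 0.105, which became 0.0335 without non-NMJ replicate 3 and 0.0463 after median centring. Kcnn2 and Kcnn1 had differences of 0.12 ± 0.12 and -0.15 ± 0.08 (SE). Kcnn1 passed after quantile normalization (-0.40, adjusted p = 0.00853) and median centring (-0.29, 0.0411).

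Of the subunits of the large-conductance (BK) channel, Kcnmb4 rose. Kcnma1, the pore gene, was bright in both regions at 7.48, 7.50 and 7.29 in NMJ regions, against 7.27, 7.33 and 6.93 in non-NMJ regions. Its ranges overlapped, with a difference of 0.25 ± 0.13 (SE, limma adjusted p = 0.258; 95% interval -0.08 to 0.57). Kcnmb4, the beta subunit best known from brain, had 5.17, 5.34 and 5.19 in NMJ regions, against 3.92, 4.08 and 4.81 in non-NMJ regions. It was 1.95-fold higher (0.96 ± 0.24, SE, adjusted p = 0.0317), and non-NMJ array 3 stood apart from the other 2. Its non-NMJ mean lies below the median row, so this fold is that of the RMA values only. Without any single array other than that one it did not pass (0.0751 to 0.101), and without it the difference was 1.23 (0.00272). Quantile normalization and the replicate block also ended the call (0.0741 and 0.0572). Kcnmb1, the smooth muscle beta subunit, had -0.27 ± 0.27 (SE), with the highest of its values, 4.74, also on non-NMJ array 3. Kcnmb2 and Kcnu1, a channel of sperm, had -0.09 each and were dim.

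Of 10 tandem pore domain channels 1 rose and 0 fell (10.0% called, beside 23.0% of all rows), with differences from -0.18 to 0.30. Above the median row, where 38.1% of all rows were called, lay 5 of the 10. At or below it the share was 7.93%. Kcnk2 (TREK-1), a leak channel opened by stretch and lipids, had values of 4.78, 4.78 and 4.77 in NMJ regions, against 4.56, 4.40 and 4.46 in non-NMJ regions. The difference was 0.30 ± 0.08 (SE, limma adjusted p = 0.0457), the member just inside the threshold. Without any single array it did not pass (0.0570 to 0.147), nor with the replicate block (0.0773) or an intensity trend with robust prior (0.0593). After quantile normalization and median centring it was 0.13 and 0.16 (0.283 and 0.188). Kcnk3 (TASK-1), Kcnk12 and Kcnk1 (TWIK-1), which had the highest mean array values of the class, had differences of -0.18, -0.16 and 0.12. Kcnk5 had 0.01 ± 0.15 (SE), and Kcnk4, Kcnk7, Kcnk10, Kcnk13 and Kcnk18 were not called either. Kcnk6 was not analysed here.

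Genes of channel partners and other potassium-permeable channels outside the naming pattern were taken from a list of 31, of which 21 had a row. Of these 1 rose and 4 fell, 23.8% beside the 23.0% of all rows. Lgi1, a secreted protein reported to act on Kv1 channels, had values of 2.66, 2.53 and 2.47 in NMJ regions, against 4.36, 4.38 and 4.03 in non-NMJ regions, and fell by 1.70 ± 0.13 (SE, limma adjusted p = 4.09e-04). All its values lie below the median row, so the size of this difference is that of the RMA values only. Lrrc52, an auxiliary subunit gene of BK-related channels, had 4.62, 4.46 and 3.93 in NMJ regions, against 5.69, 6.01 and 5.35 in non-NMJ regions, and fell by 1.35 ± 0.24 (SE), with an NMJ mean that also lies below it. Tmem38b, an intracellular cation channel that lets potassium balance calcium release, fell by 1.15 ± 0.10 (SE), and Vapb, a membrane tether that binds Kv2 channels, by 0.67 ± 0.08 (SE). In these 4 genes every junction array was lower than every non-NMJ array. The regions also did not overlap in partners that were not called, such as Akap9, Hcn2 and Nedd4l. Separation of the regions therefore adds no support to the calls. Dlg4, the scaffold that clusters Kv1 channels at synapses, rose by 0.55 ± 0.12 (SE, adjusted p = 0.0195), a call that ended without NMJ replicate 1 or 2 (0.0652 and 0.0571) or non-NMJ replicate 3 (0.0540). Abcc8 and Tmem38a were not analysed here.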

How the data were processed

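The deposited values are gene-level log2 expression values, which the authors made with RMA in Affymetrix Expression Console and Transcriptome Analysis Console, per the submitters' processing notes; the cDNA was made from 10 ng of RNA and biotin-labelled, per the labels' protocols. That the scale is log2 was judged from the values themselves. Program versions, settings and the build were not given in the sources used here. Of 23332 rows, 14996 carried 1 symbol in the platform's gene table, 1019 several and 7317 none; all 70 members matched the RefSeq table of GRCm38.p6, which was used for names, gene order and promoters (55 members had one).

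Differences are NMJ minus non-NMJ, from linear models fitted to all rows in R 4.3.3 with limma 3.58.1 (lmFit, then eBayes, two-sided, without the replicate number). The Benjamini-Hochberg adjustment ran over all rows, with calls under 0.05; a fold is 2 raised to the difference. The limma step was tested on simulated data. The number of arrays (3 per region) limits the precision. Members and lists were chosen with earlier results of these data known. Values are printed for called members, for the 3 members with the highest mean in each class and for 22 genes fixed by name, 19 of them measured; further members were named after their values were seen.

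As alternatives, the fit was repeated with the replicate number as a block, after quantile normalization or centring on the median, without the dimmest 50% of rows, with an intensity trend and robust prior, with array weights, on the mean of all rows of a gene, and without each of the 6 arrays.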

Additional observations from a re-analysis of the deposited data

How the results depend on the processing

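Of the 14 called members, 10 (Kcnj12, Kcnn4, Kcna1, Kcna2, Kcna6, Kcna5, Kcna7, Kcnc1, Kcnc4 and Kcng4) kept their call and direction under each of the 13 alternatives that tested them, and 4 (Kcnj11, Kcnmb4, Kcne4 and Kcnk2) lost it in at least 1. Kcna6 and Kcne4 are not tested without the dimmest 50% of rows. Omission of single arrays left 5 to 6 members higher and 5 to 7 lower. Over all rows it left 2220 to 2879 higher and 1133 to 1888 lower, against 3351 and 2013 with all arrays. By class it left 3 Kv pore subunits higher and 5 lower each time, 0 to 1 Kv auxiliary subunits higher, 1 to 2 of the calcium- and sodium-activated family higher and 0 to 1 lower, 1 to 2 inward rectifiers higher and 0 to 1 lower, 0 tandem pore domain channels higher, and 0 to 1 partner genes higher.

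The replicate number was not shown to pair the arrays: deviations from the region means correlated at 0.047, 0.035 and 0.184 for the same number, and NMJ replicate 2 correlated best with another number (0.111). With the replicate block, 5 members were higher and 6 lower, and of all rows 3209 and 1855. It left 0 Kv auxiliary subunits, 1 gene of the calcium- and sodium-activated family and 0 tandem pore domain channels higher. Partner genes called higher numbered 2, Akap9 having passed. Quantile normalization left 1 higher and 1 lower in the calcium- and sodium-activated family, 0 tandem pore domain channels higher and 2 partners higher. Median centring, which lowers the median difference of all rows to -0.15, gave 2 lower in that family (Kcnn1 and Kcnn3), 2 inward rectifiers lower, 0 tandem pore domain channels higher and 8 partners lower. An intensity trend with robust prior left 0 tandem pore domain channels higher. Without the dimmest 50% of rows, 0 Kv auxiliary subunits (none was left to test) and 2 partners were higher.

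Among the 36 genes followed one by one, signs changed only for genes that were not called. Median centring turned Kcnab2 (-0.0906), Kcnn2 (-0.0203), Kcnk1 (-0.0159), Kcnk5 (-0.133) and Abcc9 (-0.0288), and quantile normalization turned Kcnab2 (-0.0721) and Kcnk1 (-0.0786). Omission of single arrays gave ranges of -0.015 to 0.114 for Kcnab2, -0.0843 to 0.0555 for Kcne3, -0.474 to 0.0533 for Kcnmb1 and -0.0972 to 0.109 for Kcnk5. The cause of these changes was not tested.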
